A study of Mus musculus with 2 samples.

Results

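Cycling T cells were described in single-cell RNA sequencing of immune cells from MC38 tumours, a transplanted mouse colon carcinoma line. A barcode was a member when it held at least 1000 UMIs (unique molecular identifiers, each marking 1 captured transcript), at most 10% mitochondrial UMIs, at least 1 UMI of Cd3d, Cd3e or Cd3g, at least 3 UMIs summed over Top2a, Birc5, Ube2c, Ccnb2 and Mki67, and fewer than 3 UMIs of Lyz2 and Csf1r. The members were thus chosen by their measured UMIs of these genes, whose levels are given only as a description. In all, 144 of 4495 cells were members, which is 144 of 2206 T cells. The aPD1 library held 129 of them among 1829 T cells and 3321 cells, and the Control library held 15 among 377 T cells and 1174 cells. The 1843 T cells in which the 5-gene sum was 0 served as the non-cycling cells, 1517 in the aPD1 library and 326 in the Control library, and T cells with a sum of 1 or 2 were described apart.

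The aPD1 library came from tumours that received a PD-1 antibody, 200 µg for each mouse daily, and the Control library from tumours that received a control injection. In both, MC38 cells were placed into the skin of C57BL/6J mice at 4 sites, left for 7 days before 3 days of treatment, and viable CD45+ (immune) cells were sorted on day 10. How many animals were pooled for each library is not stated in the labels. Each group is 1 library, so every difference below is between 2 libraries or between cells within 1 library, with no replicate check and no test.

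T cells that meet antigen and growth signals leave rest, copy their DNA in S phase, and then build the mitotic machinery in G2 and M. Topoisomerase II alpha (Top2a) untangles the copied DNA, survivin (Birc5) sits in the complex that checks chromosome attachment, Ube2c is the ubiquitin-conjugating enzyme that the anaphase-promoting complex uses, Ccnb2 is a B-type cyclin, and Mki67 coats mitotic chromosomes. In tumours, CD8 T cells kill through granzymes and perforin and signal through interferon gamma and chemokines, Foxp3+ CD4 T cells restrain them, and PD-1 is an inhibitory receptor on activated T cells.

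Late cell cycle genes are known to share 2 promoter elements, the CHR (cell cycle genes homology region) and the CCAAT box, so the promoters of the genes that chose these cells are shown. The letters TTTGAA and TTCGAA for the CHR and CCAAT for the box were searched on both strands in the 250 bases before each start. The windows below are the 180 bases before the start, 5′ to 3′ on the gene's strand, from RefSeq on GRCm38.p6, with every match in capitals.
Top2a, chr11:99024190-99024369, minus strand: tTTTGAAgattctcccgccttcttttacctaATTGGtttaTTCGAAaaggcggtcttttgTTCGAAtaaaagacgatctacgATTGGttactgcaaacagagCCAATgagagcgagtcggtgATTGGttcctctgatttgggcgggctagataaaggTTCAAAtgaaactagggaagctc
Ube2c, chr2:164769749-164769928, plus strand: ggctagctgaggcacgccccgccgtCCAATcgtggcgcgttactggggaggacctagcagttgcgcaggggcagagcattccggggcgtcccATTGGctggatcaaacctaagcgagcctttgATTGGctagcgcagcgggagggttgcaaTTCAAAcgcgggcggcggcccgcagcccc
Ccnb2, chr9:70421555-70421734, minus strand: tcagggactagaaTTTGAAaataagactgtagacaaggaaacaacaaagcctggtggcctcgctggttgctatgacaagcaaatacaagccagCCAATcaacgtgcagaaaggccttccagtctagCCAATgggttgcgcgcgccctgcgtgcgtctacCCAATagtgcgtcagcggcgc
Mki67, chr7:135716380-135716559, minus strand: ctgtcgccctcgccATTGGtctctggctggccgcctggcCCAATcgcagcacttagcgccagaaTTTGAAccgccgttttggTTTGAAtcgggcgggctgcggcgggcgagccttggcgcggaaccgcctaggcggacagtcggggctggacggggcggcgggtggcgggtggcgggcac
All 5 genes matched a RefSeq promoter, and 4 of the 5 held both kinds of letters in the 250 bases, against 6.02% of 32851 mouse promoters. Top2a held 2 TTTGAA, 2 TTCGAA and 6 CCAAT matches, of which the window shows 2, 2 and 4. Ube2c held 1 TTTGAA and 6 CCAAT matches, some of them overlapping, Ccnb2 held 1 and 3, and Mki67 held 2 and 3. The Birc5 window of the same length held none of these letters, which says nothing about the factors that bind it. Across all promoters TTTGAA was present in 16%, TTCGAA in 1.34% and CCAAT in 33.8%, and a match is a description of letters, not a bound site.

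The aPD1 matrix held 13717817 UMIs and the Control matrix 5203415. Cycling T cells were deeper than non-cycling ones, with medians of 6654 against 2507 UMIs in the aPD1 library and 5677 against 2847.5 in the Control library, so levels are given as UMIs per 1000000 UMIs of the group (CPM) and shares of cells also after thinning each cell to 1000 UMIs. Only 4 cell barcodes occurred in both libraries, and none of these was a cycling T cell in both. The T-cell label was checked against macrophage barcodes with genes the rule did not use. No group of NK (natural killer) cells was measured, so the check cannot tell T cells from NK cells. Lat, an adaptor of the T-cell receptor, stood at 606 CPM in cycling and 602 CPM in non-cycling T cells of the aPD1 library, and Thy1 at 710 and 717 CPM. Other T-cell genes outside the rule were lower in cycling than in non-cycling cells of the aPD1 library. Cd2 stood at 530.8 against 974.9 CPM, Cd5 at 65.4 against 112.5 CPM and Lck at 512.2 against 617.9 CPM. Skap1 differed less, at 311.7 against 334.2 CPM. In 158 macrophage barcodes of that library, which hold at least 5 C1q UMIs and no Cd3, Lat was at 6.32 CPM and Thy1 at 7.38 CPM. Cd2 and Lck were at 8.43 CPM each in these barcodes, Skap1 at 3.16 CPM and Cd5 at 2.11 CPM. The choice of no Cd3 can leave out barcodes that picked up T-cell RNA. These and later macrophage values are thus no full measure of free RNA. Lat was at 409 CPM in cycling and 452 CPM in non-cycling cells of the Control library. In the same Control cells Cd2 was at 838.6 against 1158.6 CPM and Lck at 357.9 against 545.2 CPM. Thy1 went the other way there, at 603.4 against 502.1 CPM. Of the rule's own genes, Cd3g stood at 1089 CPM in cycling and 1875 CPM in non-cycling aPD1 cells, and 1 member rested on a single Cd3 UMI. In barcodes of any kind with a 5-gene sum of at least 3, T cells made up 55.4% of 233 in the aPD1 library and 34.9% of 43 in the Control library, and the limit on Lyz2 and Csf1r removed 22 and 3 barcodes with a Cd3 UMI. Every interval below is a 95% interval for counting error only: exact Poisson for CPM, exact binomial for shares and conditional binomial for ratios.

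The first comparison asked which T cells cycled in each library. In the aPD1 library 129 of 1829 T cells cycled, a share of 7.05% (5.92 to 8.32), and in the Control library 15 of 377, a share of 3.98% (2.24 to 6.48), a ratio of 1.77 (1.05 to 2.99). Among CD8-type T cells (at least 1 Cd8a or Cd8b1 UMI, with Cd4 and Foxp3 at 0) the share was 9.38% (7.72 to 11.3) of 1087 cells in the aPD1 library and 11% (4.85 to 20.5) of 73 cells in the Control library. That ratio of 0.856 had an interval of 0.434 to 1.69, so a difference of this size was not detectable with 73 Control cells.
Among Foxp3-type cells (at least 1 Foxp3 UMI and no Cd8 UMI) 8 of 166 cycled in the aPD1 library, or 4.82% (2.1 to 9.27), and 3 of 81 in the Control library, or 3.70% (0.770 to 10.4). Among CD4-type cells (Cd4 without Foxp3 or Cd8) it was 3 of 107 and 1 of 44. Cells with none of these transcripts, called untyped, cycled in 10 of 434 and 3 of 168 cells. Cells with Cd8 beside Cd4 or Foxp3, called mixed, cycled in 6 of 35 and 0 of 11, where the count of 0 allows a share of up to 27.3% when the limit is set at 3 cells.

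The libraries also differed in type makeup. CD8-type cells were 1087 of 1829 T cells in the aPD1 library, against 73 of 377 in the Control library. With the aPD1 library's share in each type applied to the Control makeup, 4.71% of T cells would cycle, and with the Control shares applied to the aPD1 makeup, 7.41% would. After thinning the same figures were 2.43% and 2.98%. Thinned to 1000 UMIs without a change of makeup, the aPD1 and the Control library had 3.24% and 1.47% over all T cells, and 4.24% and 4.84% over CD8-type cells. The interval of the thinned ratio over all T cells, 0.887 to 5.45, spanned 1.

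**Figure D1:**
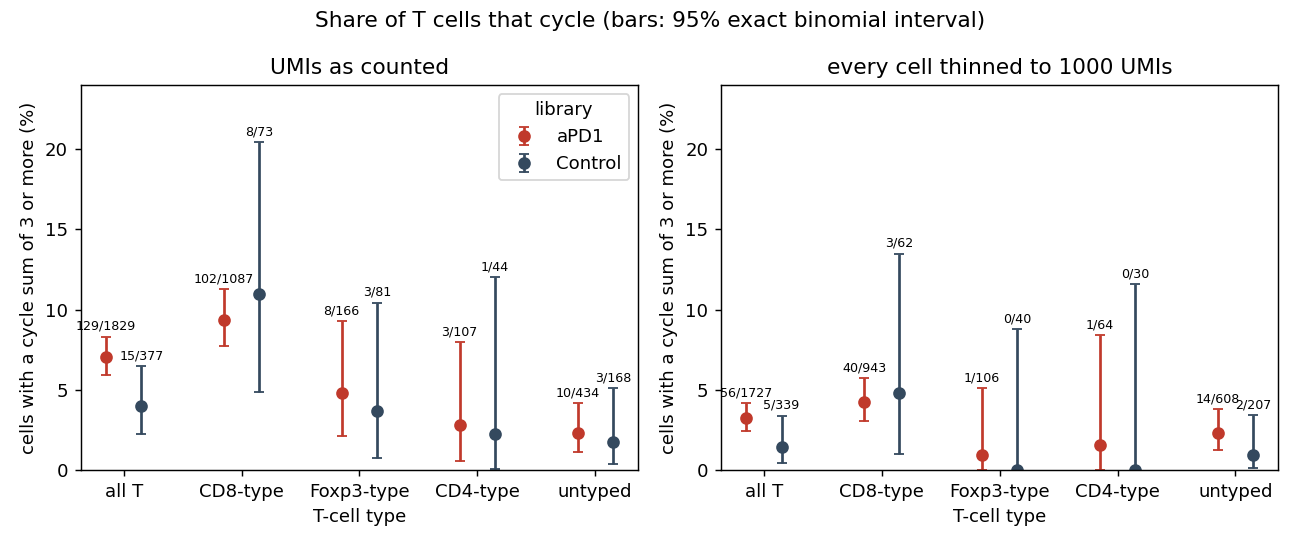
Share of T cells with a 5-gene cycle sum of 3 or more (y axis, percent) by T-cell type (x axis) for the aPD1 and the Control library, as counted (left) and with each cell thinned to 1000 UMIs (right), with exact binomial 95% intervals and the counts printed above. CD8-type cells have the highest share among the types drawn in both libraries, and the aPD1 and Control intervals overlap in each type.

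CD8-type cells made up most cycling T cells. They were 102 of 129, or 79.1% (71.0 to 85.7), of cycling cells in the aPD1 library, against 57.8% (55.3 to 60.3) of its non-cycling cells. In the Control library they were 8 of 15, or 53.3% (26.6 to 78.7), of cycling cells, against 18.4% (14.3 to 23.0) of non-cycling cells. Foxp3-type cells were 6.20% (2.72 to 11.9) of cycling against 9.10% (7.70 to 10.7) of non-cycling cells in the aPD1 library, and 3 of 15 against 19.9% (15.7 to 24.7) in the Control library. Deeper cells show a type marker more often, and of the cycling cells 7.75% were untyped in the aPD1 library, against 25.2% of non-cycling cells. Over typed cells alone, the CD8-type share was 85.7% (78.1 to 91.5) of cycling and 77.3% (74.7 to 79.7) of non-cycling cells in the aPD1 library, and 66.7% (34.9 to 90.1) and 35.3% (28.1 to 43.0) in the Control library. Of the 158 macrophage barcodes of the aPD1 library, 1 held a Cd8a UMI and none held a Foxp3 UMI at a median of 5655 UMIs. These barcodes were chosen to hold no Cd3, so the count cannot say how often free RNA carried type markers.

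The cycling CD8-type cells of the aPD1 library carried 1 to 38 Cd8 UMIs with a median of 12, and the 8 in the Control library carried 6 to 20 with a median of 10.5. Their 5-gene sums ran from 3 to 98 with a median of 10 in the aPD1 library and from 4 to 28 with a median of 15.5 in the Control library. Of the 6 mixed cells in the aPD1 library, 5 held Cd8 with Foxp3 and 1 held Cd8 with Cd4. Mixed cells were 4.65% (1.73 to 9.85) of cycling and 1.78% (1.18 to 2.58) of non-cycling cells there, at medians of 8848.5 and 2726 UMIs, and in the thinned counts none of 56 cycling cells was mixed. Whether a mixed barcode held 1 cell or 2 was not tested.

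The genes used to choose the cells were seen in most but not all members. In the aPD1 library Birc5 was present in 87.6% of members, Ube2c and Ccnb2 in 70.5% each, Top2a in 66.7% and Mki67 in 60.5%. In the Control library Ube2c was present in 86.7%, Birc5 in 80.0%, Top2a and Ccnb2 in 66.7% each and Mki67 in 46.7%. Just inside the limit, the 12 aPD1 cells with a sum of 3 held 3378 CPM of a 26-gene S-phase list and 3915 CPM of a 36-gene G2/M list that leaves out the 5 genes. Just outside it, the 46 aPD1 cells with a sum of 2 held 2271 and 2395 CPM. In the Control library 3 cells had a sum of 2, none a sum of 3 and 4 a sum of 4.

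Cycle genes outside the rule were high in the same cells, and the balance of G2/M to S-phase genes rested on Hmgb2, a chromatin protein on the G2/M list. In the aPD1 library the S-phase list summed to 3742 CPM in cycling and 623 CPM in non-cycling T cells, and in the Control library to 3436 and 528 CPM. The G2/M list summed to 9564 against 943 CPM in the aPD1 library and to 7803 against 914 CPM in the Control library. Single members spanned 0 to 10676 CPM of S-phase genes with a median of 3023 in the aPD1 library, and 210 to 10294 CPM with a median of 2800 in the Control library. They spanned 1103 to 23983 CPM of G2/M genes with a median of 9389 in the aPD1 library, and 763 to 14243 CPM with a median of 7135 in the Control library. More S-phase than G2/M UMIs were held by 15 of 129 members in the aPD1 library, or 11.6% (6.66 to 18.5), and by 1 of 15 in the Control library, the CD4-type cell. Hmgb2 alone held 4747 CPM of the G2/M sum in aPD1 and 3917 CPM in Control cycling cells. Without it the G2/M list summed to 4816 CPM in aPD1 and 3886 CPM in Control cycling cells, and 55 of 129 and 5 of 15 members held more S-phase than G2/M UMIs. The lists also differ in size, so their sums give no share of cells in a phase. The full sums were nearly unrelated across members, with Spearman's rho of -0.13 over 129 aPD1 cells and 0.22 over 15 Control cells, as a description of cells that share a library. The rule left out a part of the cells rich in S-phase genes: of 136 aPD1 T cells with at least 10 S-phase UMIs, 50 were no members, and of 14 in the Control library, 6 were none. Such cells were 66.7% of aPD1 members, 13.7% of aPD1 T cells with a sum of 1 or 2, and 1.65% of aPD1 non-cycling cells, and 53.3%, 2.78% and 1.53% of these groups in the Control library.

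**Figure D2:**
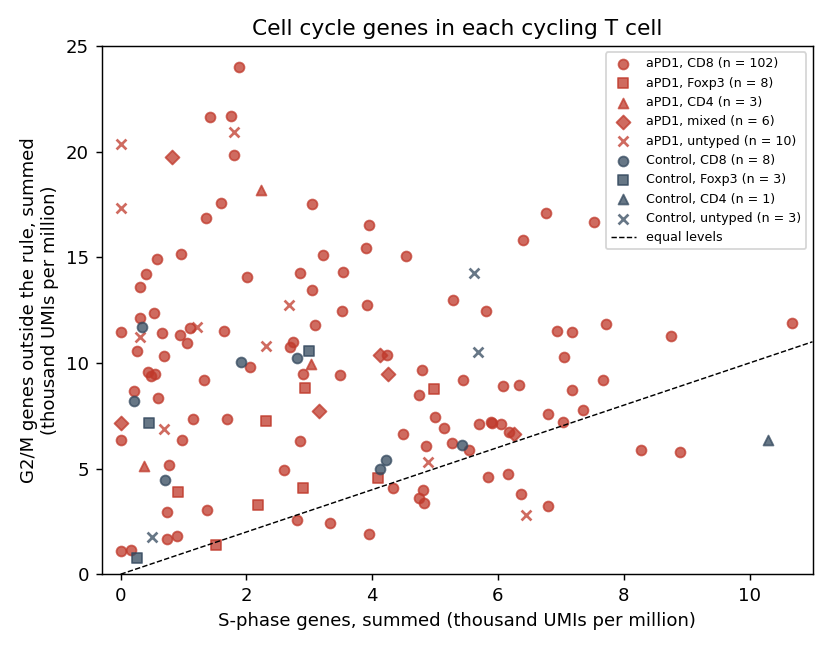
Each point is 1 cycling T cell, with its summed S-phase genes on the x axis and its summed G2/M genes outside the rule on the y axis, both in 1000 CPM, with colour for the library and shape for the T-cell type. Most cells lie above the line of equal levels: 114 of 129 in the aPD1 library and 14 of 15 in the Control library, and 72 and 8 of them when Hmgb2 is left out.

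Within CD8-type T cells of the aPD1 library (102 cycling and 877 non-cycling), 26 of 26 S-phase genes and 34 of 34 measured G2/M genes were higher in cycling cells, with list medians of 2.91 and 5.08 on the log2 scale. The other G2/M genes had under 20 UMIs over both groups, the minimum for a ratio. Over all 7405 genes measured, the median was 0.04, and 9.8% were at least 2-fold higher and 9.05% at least 2-fold lower. S-phase examples were Rrm2, a subunit of the enzyme that makes deoxynucleotides, at 524 against 3.04 CPM, and Tyms, which makes thymidylate, at 224 against 12.9 CPM. G2/M examples were Ccna2 (cyclin A2) at 303 CPM against 0.760 CPM from 2 UMIs, Cdk1, the mitotic kinase, at 224 against 3.04 CPM, and Plk1, another mitotic kinase, at 83.6 CPM against 0.380 CPM from 1 UMI. These genes move with the 5 that chose the cells and are given as a description.

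The effector genes of CD8-type cells did not share a direction in the aPD1 library. Gzma was higher in cycling cells, Gzmb was about level, and the chemokines Ccl4 and Ccl5 were lower. Of 24 effector genes measured, 9 were higher and 15 lower in cycling cells, with a median of -0.41, against 52% and 48% of all genes. At least 2-fold higher were 3 (Gzma, Gzmf and Tnf) and at least 2-fold lower were 6 (Ccl3, Ccl4, Ccl5, Xcl1, Lamp1 and Fasl). The Tnf ratio rested on 11 and 19 UMIs and its interval spanned 0.

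Granzymes are serine proteases that enter the target cell, and most of those listed lie in a pair of gene clusters. Gzma (chr13:113093825-113100981, GRCm38) and Gzmk (chr13:113171608-113225908) are neighbours, as are Gzmb (chr14:56258838-56262260), Gzmc (chr14:56231441-56234656) and Gzmf (chr14:56205263-56211417), while Gzmm (chr10:79689020-79695261) lies apart. Gzma stood at 4318 CPM in cycling and 1241 CPM in non-cycling CD8-type cells, a log2 ratio of 1.80 (1.73 to 1.87). Single cycling cells held 0 to 267 Gzma UMIs with a median of 6, and 25 of the 102 held none, so the gene was far from even among them. The highest cell held 8.21% of the cycling cells' Gzma UMIs. After thinning, 54.9% (44.7 to 64.8) of cycling and 25.8% (22.9 to 28.8) of non-cycling cells held a Gzma UMI, against 3.80% (1.41 to 8.08) of macrophage barcodes, at unthinned medians of 6786, 2766 and 5655 UMIs. Unthinned shares were 75.5%, 37.9% and 22.8%. The ratio was 0.75 without cells that held an Ncr1 UMI or at least 2 UMIs of macrophage, B-cell, dendritic, neutrophil or tumour markers. This left 41 of 102 cycling and 679 of 877 non-cycling cells. These limits were on UMIs as counted, so deeper cells met them more readily, and cycling cells were deeper.

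Gzmb stood at 2676 CPM in cycling and 2860 CPM in non-cycling cells, a log2 ratio of -0.10 (-0.17 to -0.02). Single cycling cells held 0 to 160 Gzmb UMIs with a median of 11.5, and all but 2 held at least 1. This small difference turned to 0.47 without the cells that carried other-lineage UMIs, to 0.086 without the deepest 5% of barcodes and to 0.034 with each cell weighted alike, so no direction is read from it. Gzmk was lower, at 377 against 488 CPM (-0.37, -0.56 to -0.19). Cell by cell after thinning, 27.5% of cycling and 28.4% of non-cycling cells held both Gzmb and Gzmk, 51.0% and 45.7% Gzmb alone, 3.92% and 7.75% Gzmk alone, and 17.6% and 18.1% neither, with overlapping intervals in each class. The remaining granzymes were rare. Gzmc stood at 236 against 149 CPM, but 1 cycling cell held 69.1% of the cycling UMIs. Gzmf stood at 109 against 20.1 CPM, from 6 of 102 cycling and 14 of 877 non-cycling cells, with 52.4% of the cycling UMIs in 1 cell. Without cells carrying other-lineage UMIs, the log2 ratio of Gzmc came to 3.30 and that of Gzmf to 4.37. Gzmm stood at 53.1 against 29.6 CPM.

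Perforin (Prf1), which lets granzymes into the target, was low in both states, at 19.9 against 27.4 CPM (-0.46, -1.37 to 0.36). Nkg7, a protein of cytotoxic granules, stood at 3251 against 4447 CPM (-0.45, -0.52 to -0.39), and Ctsw, a protease of cytotoxic cells, at 394 against 658 CPM (-0.74). Fasl, the death ligand, stood at 104 against 218 CPM (-1.07, -1.43 to -0.73). The granzyme inhibitors Serpinb9, at 227 against 220 CPM, and Serpinb6b, at 317 against 285 CPM, had intervals that spanned 0. Among receptors shared with NK cells, Klrg1 stood at 118 against 64.2 CPM (0.88) and turned to -0.75 without cells carrying other-lineage UMIs, while Klrd1 stood at 487 against 719 CPM (-0.56) and Klrk1 at 536 against 674 CPM (-0.33).

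The 4 chemokines had the lowest ratios of the effector list. Ccl5 (chr11:83525778-83530518), a chemokine that draws T cells and myeloid cells, stood at 3738 CPM in cycling and 13248 CPM in non-cycling cells (-1.83, -1.88 to -1.77). After thinning, 82.4% of cycling and 92.6% of non-cycling cells held a Ccl5 UMI, against 24.1% of macrophage barcodes. Ccl4 stood at 504 against 2286 CPM (-2.18, -2.33 to -2.03) and Ccl3 at 162 against 680 CPM (-2.07, -2.35 to -1.80), both inflammatory chemokines. Ccl3 was far less even than Ccl5: a single non-cycling cell held 19.4% of its non-cycling UMIs. After thinning, 5.88% of cycling and 5.36% of non-cycling cells held a Ccl3 UMI, below the 15.2% of macrophage barcodes, and its ratio turned to 0.23 without the cells carrying other-lineage UMIs, so no direction is read from Ccl3. Ccl4 was held by 19.6% of cycling and 31.1% of non-cycling cells after thinning, against 38.0% of macrophage barcodes. Its ratio came to -0.97 without those cells, and that of Ccl5 stayed between -1.93 and -1.53 in all alternatives run. Xcl1, which attracts cross-presenting dendritic cells, stood at 23.9 against 98.0 CPM (-2.04).
Ifng (chr10:118441046-118445892) gave no order. Its level was 356 CPM in cycling against 674 CPM in non-cycling cells (-0.92, -1.11 to -0.74), but after thinning 23.5% (15.7 to 33.0) of cycling and 12.7% (10.5 to 15) of non-cycling cells held a UMI, against 0.633% of macrophage barcodes. A single non-cycling cell held 21.4% of the non-cycling Ifng UMIs, and the top 10% of non-cycling cells held 91.5%.

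**Figure D3:**
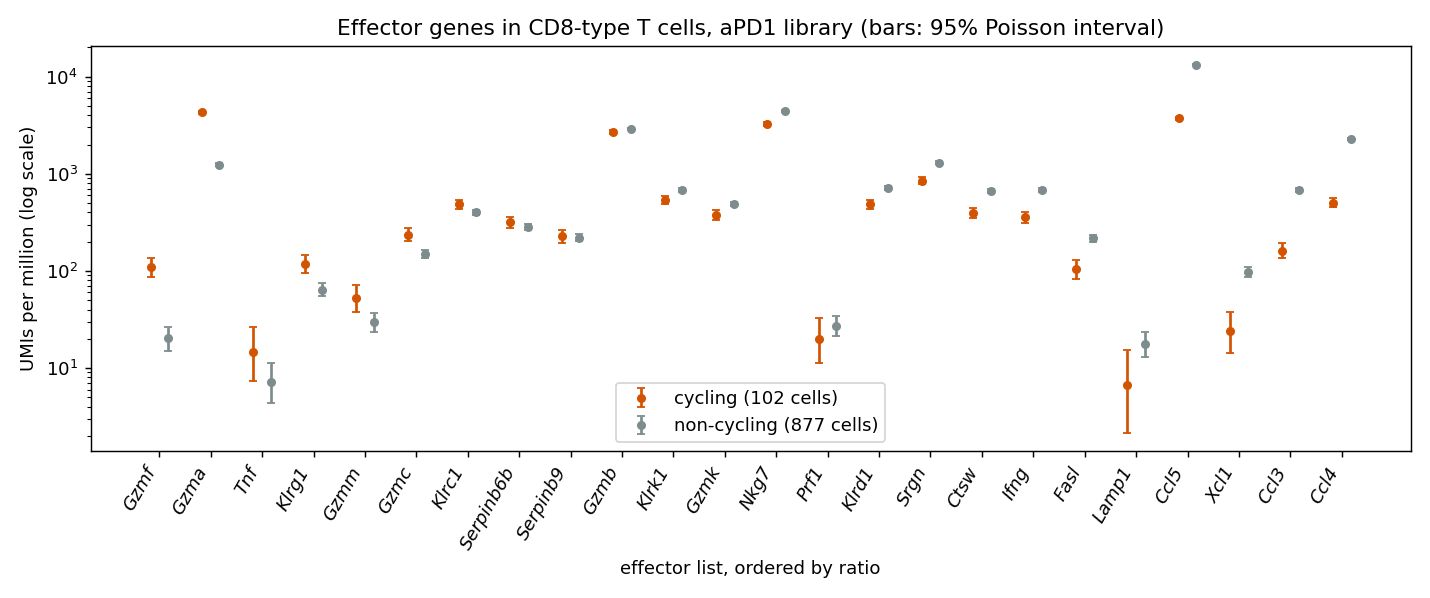
Level of each of the 24 effector genes (y axis, CPM on a log scale) in cycling (102 cells) and non-cycling (877 cells) CD8-type T cells of the aPD1 library, with 95% Poisson intervals, ordered from left to right by the ratio. Gzma is higher in cycling cells at 4318 against 1241 CPM, Gzmb is about level, and Ccl5, Xcl1, Ccl3 and Ccl4 lie at the low end.

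Interferon-response genes were lower in cycling CD8-type cells of the aPD1 library throughout. All 18 measured genes were lower, 14 of them at least 2-fold, with a median of -1.26 (range over the alternatives -1.53 to -0.88). Ifit3, an antiviral protein induced by type I interferon, stood at 33.2 against 246 CPM (-2.89, -3.53 to -2.32). Isg15, a ubiquitin-like modifier, stood at 157 against 378 CPM (-1.27), and Bst2 at 147 against 431 CPM (-1.55). Ifit3 was also uneven, with 11 of the 25 cycling UMIs in 1 cell. Without cells carrying other-lineage UMIs, Ifit3 came to -1.82 and Isg15 to -0.60.

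Genes of naive and memory T cells were lower as a list: 8 of 10 measured were lower and 7 at least 2-fold, with a median of -1.18. Bcl2, which protects resting T cells from death, stood at 45.1 against 180 CPM (-2.0, and -1.21 after thinning), and Cd27, a costimulatory receptor, at 110 against 272 CPM (-1.30). Ratios after thinning used CD8-type cells picked anew on the thinned counts, 40 cycling and 834 non-cycling. The thinned shares of CD8-type cells holding a gene kept the 102 and 877 cells. Ccr7, which guides T cells to lymph nodes, had 4 against 121 UMIs (-3.11, -5.01 to -1.72), and Tcf7, the transcription factor of stem-like T cells, had 3 against 69 UMIs (-2.72, -5.03 to -1.11). Without cells carrying other-lineage UMIs, Ccr7 came to -1.23 and Tcf7 to -0.93. S1pr1, an exit receptor, stood the other way at 51.8 against 26.2 CPM (0.98). Inhibitory receptors were lower in 7 of 9, none of them 2-fold, with a median of -0.40. Pdcd1, which encodes PD-1 itself, stood at 95.6 against 187 CPM (-0.97, -1.35 to -0.61), while Havcr2 (TIM-3) stood at 73.0 against 47.5 CPM (0.62, 0.14 to 1.09). Over the alternatives the Havcr2 ratio ran from 0.21 to 1.57, the highest after thinning. The medians of both lists changed sign after thinning, to 0.038 and 0.86, where few of their genes reach 20 UMIs.

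Cytokine and chemokine receptors were lower in 11 of 15, with a median of -0.47. Cxcr3, the receptor for interferon-induced chemokines, stood at 81.0 against 254 CPM (-1.65, and -0.63 after thinning), and Cxcr6 at 342 against 874 CPM (-1.35). Il2ra, the high-affinity subunit of the interleukin 2 receptor, was among the 4 that were higher, at 51.8 against 19.8 CPM (1.39, 0.75 to 2.02), and it came to 0.21 without cells carrying other-lineage UMIs. Genes induced by T-cell receptor signals were split, 6 higher and 6 lower, with Icos at 181 against 501 CPM (-1.47). Lineage transcription factors were split 5 and 5. Tbx21 (T-bet), which drives effector genes, stood at 77.0 against 39.1 CPM (0.98, 0.49 to 1.45), and Eomes at 29.2 against 35.3 CPM with an interval that spanned 0. Glycolytic genes were level as a list, with 9 of 16 higher and a median of 0.07. Gapdh stood at 2059 against 1402 CPM (0.55), Tpi1 at 273 against 152 CPM (0.85) and Gpi1 at 305 against 404 CPM (-0.40).

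Inhibitors of the cycle did not share a direction, with 8 of 12 higher and a median of 0.29, which came to 1.35 after thinning and turned to -0.45 without cells carrying other-lineage UMIs. Cdkn2c (p18) stood at 82.3 against 19.4 CPM (2.09), Cdkn2d (p19) at 210 against 70.7 CPM (1.57) and Cdkn1a (p21) at 79.6 against 30.8 CPM (1.37). Cdkn1b (p27), which holds resting T cells, stood at 21.2 against 47.1 CPM (-1.15), and the antiproliferative gene Btg1 at 491 against 1170 CPM (-1.25). Klf2, a quiescence factor, stood at 37.2 against 8.74 CPM (2.09) from 28 and 23 UMIs.

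**Figure D4:**
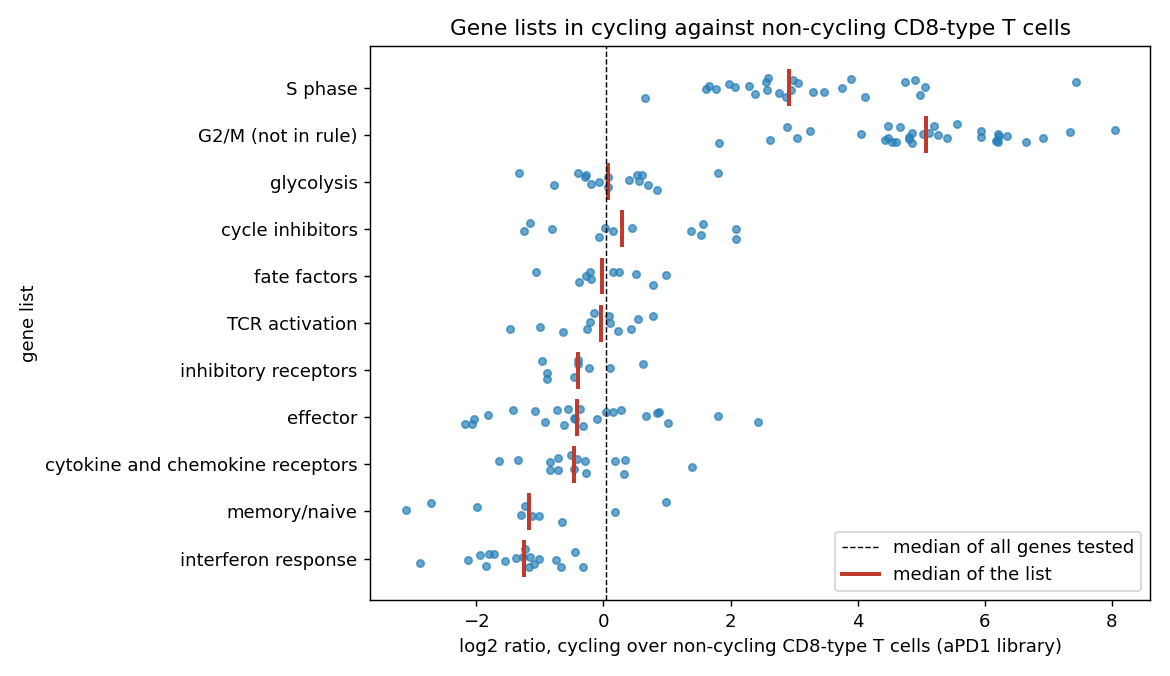
Log2 ratio of cycling over non-cycling CD8-type T cells of the aPD1 library (x axis) for each measured gene of 11 lists (y axis), with the list median in red and the median of all 7405 genes dashed. The S-phase and G2/M lists lie to the right, the interferon-response list lies wholly to the left with a median of -1.26, and the effector list spans both sides.

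Outside the listed cycle genes, the 10 highest ratios included further genes known from cell division. Cdkn3, a cell cycle phosphatase, had 119 against 3 UMIs, Spc24 and Spc25, of the outer kinetochore, had 141 against 10 and 62 against 1, and Stmn1, a microtubule regulator, stood at 1233 against 26.2 CPM (5.56). The others were Rad51ap1, Casc5, Ska1, Cit, Esco2 and Mxd3. The 10 lowest were St6galnac3, Ccr7, H2-Aa, H2-Ab1, Ifit3, Cysltr2, Qpct, H2-Eb1, Ifit3b and Tcf7. The MHC class II genes among them rested on few cells, since 1 non-cycling cell held 51.7% of the non-cycling H2-Aa UMIs and 61.7% of those of H2-Ab1. Without cells carrying other-lineage UMIs, H2-Aa came to 0.26 and H2-Eb1 to 0.45. H2-Aa and H2-Ab1 are dendritic markers by which that filter removed cells, so these values are no separate check.

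Among cycling CD8-type cells of the aPD1 library, the 5 NK markers summed to 102 CPM, against 153 CPM in non-cycling cells, with Ncr1 and Klra8 at 0. The 5 macrophage markers that the rule did not use summed to 23.9 against 65.7 CPM, from 18 and 173 UMIs. The 3 B-cell markers to 5.31 against 3.80 CPM, the 5 dendritic markers to 35.8 against 285 CPM, and the 4 tumour markers had no UMI against 12. Neutrophil markers went the other way, at 260 against 122 CPM. After thinning, 20.6% of cycling and 6.39% of non-cycling CD8-type cells held a neutrophil UMI. Free RNA, estimated from C1q, Apoe and Ms4a7 UMIs, was 1.20% of cycling and 3.30% of non-cycling UMIs, and the source of the neutrophil UMIs was not tested. S100a8 was at 125 against 55.8 CPM and S100a9 at 104 against 56.6 CPM, no cycling cell held more than 7 S100a8 UMIs, and Csf3r was at 0. The part of these transcripts in the other ratios was not tested beyond the ratios given without such cells. In the Control library neutrophil markers were at 0 in both CD8-type groups.

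The 8 cycling CD8-type cells of the Control library are too few for a level, so their UMIs are given cell by cell. Gzma was held by 2 of the 8, with 13 and 7 UMIs. Gzmb was held by 7 of 8, up to 38 UMIs in a cell with a median of 10.5, near the median of 11.5 in the 102 aPD1 cells at similar depth (6354 and 6786 UMIs). Gzmk was held by 3 of 8 with 4 UMIs in all, Ifng by 4 of 8 with 10 UMIs, Ccl5 by 7 of 8 with 338 UMIs and Pdcd1 by 7 of 8 with 21 UMIs. Ccl3 and Ccl4 came mainly from 1 cell, with 75 of 83 and 108 of 131 UMIs.

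Cycling T cells of all types were then compared between the libraries (129 aPD1 and 15 Control cells). Gzma and Gzmk were higher in the aPD1 cells, and the chemokines Ccl3 and Ccl4, regulatory T-cell genes and interferon-response genes were lower. Over 4680 genes measured the median log2 ratio was -0.11, with 3.55% at least 2-fold higher and 7.03% at least 2-fold lower, and 41.6% higher and 58.4% lower by any amount. The libraries' cycling cells also differed in type, with 79.1% and 53.3% CD8-type and 6.20% and 3 of 15 Foxp3-type cells, and this cannot be told apart from levels within a type.

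Of 22 effector genes measured, 16 were higher and 6 lower in aPD1 cycling cells, with a median of 0.35 (0.12 to 0.47 over the alternatives). Gzma stood at 3605 CPM in aPD1 and 1892 CPM in Control cycling cells (0.93, 0.72 to 1.15), but 165 of the 185 Control UMIs came from 2 of the 3 untyped cells. Gzmk stood at 319 against 71.6 CPM (2.16, 1.10 to 3.48) and was held by 82 of 129 and 4 of 15 cells. Ifng stood at 304 against 102 CPM (1.57, 0.67 to 2.65), with 7 of the 10 Control UMIs in 1 cell, and Gzmb at 2641 against 2414 CPM with an interval that spanned 0. Gzmc had 180 UMIs against 1, of which 68.3% lay in 1 aPD1 cell. Ccl3 stood at 135 against 931 CPM (-2.78) and Ccl4 at 419 against 1370 CPM (-1.71), with 1 Control cell holding 82.4% of the Control Ccl3 UMIs and 80.6% of the Control Ccl4 UMIs. Ccl5 stood at 3182 against 4776 CPM (-0.59).

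**Figure D5:**
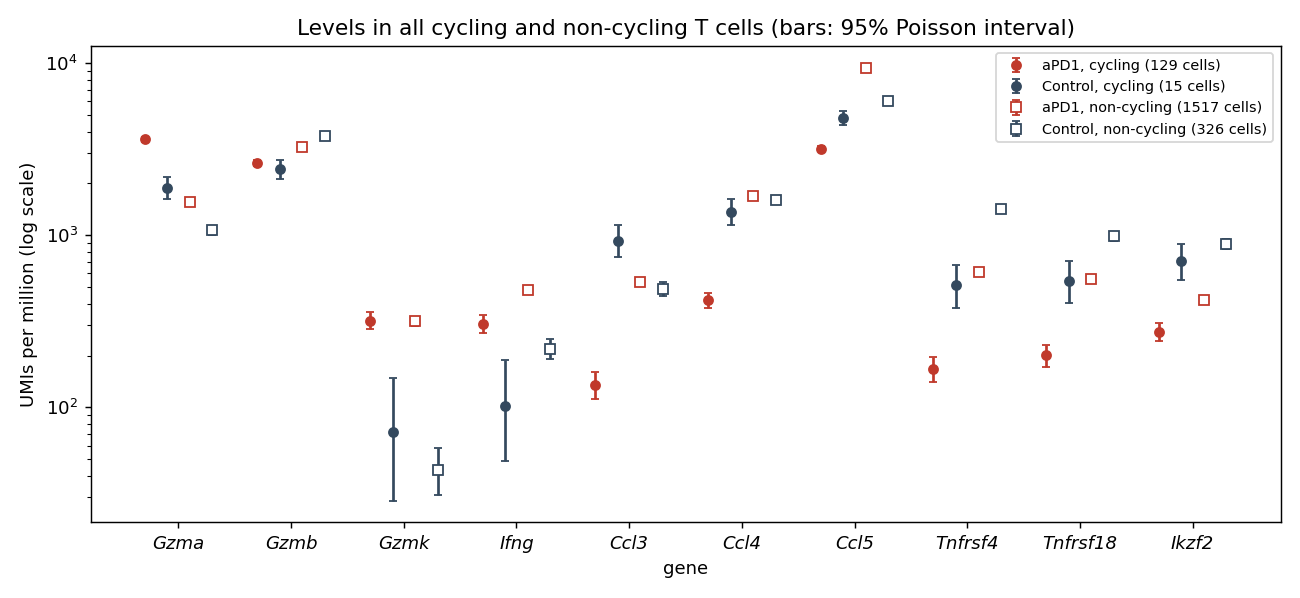
Level of 10 genes (y axis, CPM on a log scale) in cycling T cells of the aPD1 (129 cells) and Control (15 cells) libraries, filled, and in their non-cycling T cells (1517 and 326 cells), open, all types together, with 95% Poisson intervals. Gzma is higher in cycling than in non-cycling cells in both libraries, but 2 untyped cells held 165 of the 185 UMIs in Control cycling cells. Ccl3 differs most between the cycling cells, at 135 against 931 CPM.

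Of the regulatory T-cell list, 12 of 13 measured genes were lower in aPD1 cells, with a median of -1.29. Tnfrsf4 (OX40), a costimulatory receptor that regulatory T cells carry, stood at 167 against 511 CPM (-1.62), Tnfrsf18 (GITR) at 201 against 542 CPM (-1.43), and Ikzf2 (Helios) at 275 against 706 CPM (-1.36). The 3 Control Foxp3-type cells held 35 of the 50 Control Tnfrsf4 UMIs and 38 of the 69 Ikzf2 UMIs. Areg, a growth factor, went the other way with 114 aPD1 UMIs against 0. With the Control cells set to 3 UMIs over the group it was 4.05-fold higher, a log2 ratio of 2.02 whose interval began at 1.70. The 8 aPD1 Foxp3-type cells held 61 of the 114 Areg UMIs. In the Control library, the 65 non-cycling Foxp3-type cells held 130 Areg UMIs. Interferon-response genes were lower in 14 of 16, with a median of -0.89 (-0.93 to -0.36 over the alternatives). Isg15 stood at 160 against 409 CPM (-1.35, and -0.53 without the deepest 5% of barcodes), and Gbp2 stood apart at 160 against 51.1 CPM (1.65).
Several of these differences were also present in non-cycling CD8-type cells between the libraries. There 12 of 12 regulatory genes were lower in the aPD1 library with a median of -1.13, Gzma had a log2 ratio of 1.59, Gzmk of 2.07, Ccl3 of -1.60 and Ccl4 of -1.15. In these cells the interferon list lay the other way, with 16 of 18 genes higher in the aPD1 library, 7 of them at least 2-fold, and a median of 0.86. Of all 6894 genes measured there, 43.9% were higher, 4.6% at least 2-fold higher and 8.3% at least 2-fold lower. Cycling over non-cycling T cells of all types gave an interferon median of -1.22 in the aPD1 library, with 18 of 18 lower and 12 at least 2-fold lower. Of all 8569 genes in that comparison, 51.7% were lower, 9.29% at least 2-fold lower and 9.31% at least 2-fold higher. The same ratio in the Control library had a median of -0.08, with 8 of 17 higher, 9 lower and none 2-fold either way. Of all 4828 genes there, 62.9% were higher and 37.1% lower, 10% at least 2-fold higher and 4.08% at least 2-fold lower. These comparisons share their cycling or non-cycling cells, and the difference between the libraries was not tested.

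By the rule of size, the highest aPD1 over Control ratios in cycling cells were those of Ifitm1, AA467197, Gzmc, Furin, Ifitm2, Gzmk, S100a8, Areg, Trappc1 and Cd164. Ifitm1 stood at 538 CPM against 3 UMIs (4.13, 2.58 to 6.42) and was held by 36 of 129 and 3 of 15 cells, and AA467197 at 294 CPM against 3 UMIs (3.26, 1.70 to 5.55). Furin, a protease that activates precursor proteins, had 143 UMIs against 1, and S100a8 had 114 against 0. The log2 ratio of S100a8 ran from 0.96 to 2.08 over the alternatives. Neutrophil markers, S100a8 among them, summed to 10990 CPM in the free RNA of the aPD1 library and 683 CPM in that of the Control library. The source of the S100a8 UMIs was not tested. The lowest were Ccl3, Klre1, Ccl4, Sdf4, Tnfrsf4, Cd27, Ifi27l2a, Tnfrsf18, Ikzf2 and Isg15. Cd27 stood at 107 against 317 CPM (-1.57) and was held by 52 of 129 and all 15 cells. Ifi27l2a, an interferon-induced gene, stood at 1455 against 4193 CPM (-1.53) and was held by 99 of 129 and 12 of 15 cells.

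Cycling Foxp3-type cells numbered 8 in the aPD1 and 3 in the Control library, so no ratio was formed. All 8 aPD1 cells held Ikzf2 (71 UMIs), Tnfrsf18 (49), Tnfrsf4 (62) and Capg (50), 7 of 8 held Ctla4 (50) and 6 of 8 held Il2ra (25). Tnfrsf4 stood at 1018 CPM (780 to 1305) in these cells and at 3133 CPM (2945 to 3329) in the 138 non-cycling Foxp3-type cells, and Tnfrsf9, another costimulatory receptor, at 624 CPM (441 to 856) against 2001 CPM (1852 to 2159). Gzmb was high in them too, at 3989 CPM (3504 to 4524) in cycling and 7743 CPM (7447 to 8048) in non-cycling cells. All 8 cycling cells held it, with 7 to 85 UMIs in a cell and 243 in all. With 8 cells these levels are a description, and their intervals leave out the spread between cells. The 3 Control cells held Ikzf2 (38 UMIs), Tnfrsf4 (35), Tnfrsf18 (26), Ctla4 (13) and Gzmb (47) in all 3 cells each.

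The untyped members, which lack Cd8, Cd4 and Foxp3 UMIs by definition, had medians of 2731 UMIs in the aPD1 library and 4985 in the Control library. In the aPD1 library 9 of the 10 held Cd3g, 9 held Cd3d and 6 held Cd3e, 5 held Gzmb and 2 held Ncr1, an NK-cell receptor. In the Control library all 3 held Cd3d, Cd3e, Cd3g and Gzmb, 2 held Ncr1 and 2 held Gzma. The gamma-delta T-cell receptor genes Trdc, Tcrg-C1, Tcrg-C2 and Tcrg-C4 are absent from the gene list of the matrices, so the lineage of these cells was not resolved.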

How the data were processed

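Per the labels, viable CD45+ cells from MC38 tumours were run as 1 aPD1 and 1 Control 10x Genomics library. The deposited values are raw UMI counts per gene and barcode, made by the authors with Cell Ranger 2.1 on mm10, per the submitters' processing notes. The matrices list 27998 genes and 737280 barcodes each, with no cells called, so the cell filters above were applied here, and no doublet caller was run. UMIs were summed per library, T-cell type and state and divided by the group's total. Ratios were formed for genes with at least 20 UMIs between groups of at least 10 cells, and fewer than 3 UMIs over a group were set to 3. With 1 library per group no test was made. Named genes were the 10 highest and 10 lowest ratios with at least 30 UMIs in the higher group, without cycle, mitochondrial, ribosomal, receptor segment, histone, sex-linked and unnamed genes. Because the Control library held fewer than 10 cycling CD8-type cells, they were ranked by the aPD1 ratio alone, and the planned comparison of the libraries within CD8-type cells was made over all cycling T cells. Free RNA came from barcodes with 10 to 50 UMIs. Gene positions are from the GENCODE annotation of GRCm38 and promoters from RefSeq. The members and lists were chosen with earlier results of these data known. The calculation of ratios was checked on Poisson counts simulated around the summed profiles, which leave out the spread between cells. Python 3.11.15, NumPy 2.4.6, SciPy 1.17.1, pandas 2.3.3 and matplotlib 3.10.9 were used. The alternatives changed the UMI, mitochondrial, cycle and Cd3 limits, thinned the cells, left out cells with other-lineage UMIs or the deepest 5%, subtracted free RNA, and, added after seeing the data, left cycle, mitochondrial and ribosomal genes out of the totals or weighted each cell alike.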

Additional observations from a re-analysis of the deposited data

Results flagged for a closer look

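For 5 of 144 genes looked at, the ratio of cycling over non-cycling T cells of all types lay on opposite sides of 0 in the libraries, with both intervals clear of 0. The difference between the libraries was not tested, and the type makeup of cycling and non-cycling cells differs between them. Ccl3 had a log2 ratio of -1.98 (-2.25 to -1.72) in the aPD1 library and 0.93 (0.59 to 1.25) in the Control library, where 1 cell held 75 of the 91 cycling UMIs. Pdcd1, which encodes PD-1, had -0.99 in the aPD1 library and 0.94 in the Control library, from 78 and 22 cycling UMIs. Klrd1 had -0.62 and 0.74 and Klre1 -0.64 and 1.13 in the aPD1 and the Control library, and both are receptors that NK cells also carry. Nkg7 had the smallest pair, -0.30 in the aPD1 library and 0.23 in the Control library.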

How the results depend on the processing

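The share of T cells that cycled moved with the limits. Over all aPD1 T cells it was 9.0% with a minimum of 2000 UMIs, 9.57% with a cycle sum of at least 2, 5.63% with a sum of at least 5, 3.24% after thinning, 4.27% without cells holding Ncr1 or other-lineage UMIs and 5.59% without the deepest 5% of barcodes. Over CD8-type aPD1 cells it was 12.2% and 7.64% with sums of at least 2 and 5, 4.24% after thinning, 5.16% without other-lineage UMIs and 7.37% without the deepest barcodes. In the Control library thinning gave 1.47% over all T cells and 4.84% over CD8-type cells. Signs turned in 9 values of cycling over non-cycling CD8-type aPD1 cells whose interval as first counted lay clear of 0. Thinning turned the memory list to 0.038 and the inhibitory list to 0.86. Leaving out cells with other-lineage UMIs turned Ccl3 to 0.23, Gzmb to 0.47, H2-Aa to 0.26, H2-Eb1 to 0.45 and Klrg1 to -0.75. H2-Aa is itself a marker of that filter, and deeper cells met its limits more readily. Gzmb also turned to 0.086 without the deepest barcodes and to 0.034 with cells weighted alike, a setting chosen after seeing the data. The cause of these turns was not tested. In all, 1031 of 1054 log2 values kept their sign, and the other changes of sign were in list medians whose interval spanned 0. No paired analysis was possible because each group is 1 library, and no replicate could be left out. Thinning and the removal of other-lineage cells left fewer than 10 Control cycling cells, so they gave no ratio between the libraries. The regulatory list in Foxp3-type cells gave a ratio only with a cycle sum of at least 2, in 14 cycling aPD1 cells. There its 15 measured genes had a median of -0.75 (-0.17 over all genes). The list includes Foxp3, which chose these cells, so this median is a description. Leaving Hmgb2 out of the G2/M list, also chosen after seeing the data, moved the share of members with more S-phase than G2/M UMIs to 42.6% in the aPD1 library and 33.3% in the Control library. The 15 cycling cells limit the precision of every Control value.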
